A study of Mus musculus with 12 samples.

Results

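Splicing factor genes were followed in the 12 mouse arrays of a study on the nuclear growth hormone receptor. The set holds every gene whose symbol names a heterogeneous nuclear ribonucleoprotein (hnRNP, Hnrnp), an SR protein (Srsf), a subunit of the SF3a or SF3b complex (Sf3a, Sf3b), a subunit of the U2 auxiliary factor (U2af), an Sm or snRNP-specific protein (Snrp), an Sm-like protein (Lsm) or a factor of the PRP family (Prpf), on spots annotated to that gene alone. These were 66 of the 15081 named genes on the array, carried by 73 spots. A value on all 12 arrays was required for testing, and 51 of the 66 genes met it (77.3%, against 57.7% of all named genes). They fell into 14 hnRNP genes, 6 SR genes, 4 SF3 genes, 2 U2AF genes, 11 Sm and snRNP genes, 7 Sm-like genes and 7 PRP genes. The other 15 were Hnrnpa0, Hnrnph2, Srsf5, Srsf6, Srsf11, Sf3b1, Sf3b3, Sf3b6, Snrpc, the pseudogene Snrp1c-ps2, Lsm2, Lsm6, Prpf4b, Prpf6 and Prpf18.

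Splicing removes introns in steps carried by small nuclear ribonucleoproteins (snRNPs). U1 binds the 5′ splice site, U2AF reads the pyrimidine tract and the AG of the 3′ splice site, and U2, with SF3a and SF3b, takes the branch point before the U4/U6.U5 tri-snRNP joins. Sm proteins form the ring around most of these RNAs and Sm-like proteins the ring around U6, while SR proteins and hnRNPs bind exons and introns and tip the choice of splice sites. All cells need the core factors, while the levels of SR proteins and hnRNPs set which exons a cell type keeps.

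On every array the Cy3 channel carried total RNA of 1 sample and the Cy5 channel RNA of an embryonic reference. Sample titles name the receptor as WT (wild type) or NLS (a nuclear localization signal, by the common use of the letters), combined with 0GH or 1GH. Each of the 4 combinations has 3 arrays, lettered b, c and d. The labels list 100 ng/ml human growth hormone for every sample, 0GH included, and call the series a time course. The names 0GH and 1GH are therefore used without a unit and without the claim that 0GH was untreated. All titles also carry an unexplained 10 after the form of the receptor. No cell type, strain, vector or culture is named in the labels. Whether the letters are separate cultures is not stated either, so every p-value measures only the spread between these samples, which may be technical. The arrays of a letter have the same recorded dye incorporation of the reference, so the letter is treated as a possible labelling batch, which no label states.

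A level here is the log2 ratio of sample to reference after the median of the tested features of that array was set to 0, so a level of 1 lies 1 log2 unit above the middle of the array. In such bulk RNA, fewer cells of a type and less RNA per cell cannot be told apart. Which channel the deposited ratio had on top is not stated. It was read from 42 measured genes of embryonic tissues, 37 of which lay on the reference side once the sign was turned. Between 15939 and 19700 spots per array had a value. Of the marker lists set beside the members, the B lymphoid list had a median level of 0.62 (7 of 8 genes measured), with Cd79b at 3.88 and Cd79a at 2.90 but Blnk at -3.03 and Ebf1, on 3 arrays, at -4.64. The neuron list had a like median of 0.61 (4 of 4), with Tubb3 at 3.76, Map2 at 0.89 and Stmn2 at 0.34 but Dcx, on 8 arrays, at -3.26. The myeloid list lay at -1.90 (5 of 6), with Prtn3 at 3.735 and Mpo at 1.05. Its lower genes were Lyz2 at -1.90, Elane at -2.06 and Itgam, on 3 arrays, at -4.96. Itgam had no value in WT 0GH, so the group medians of this list cover unlike genes and are not compared. The epithelial, fibroblast and hepatocyte lists lay at -2.15, -4.59 and -4.92. The lists therefore name no single cell type. Of the erythroid list, 5 of 6 genes were measured, and 4 of them in every group. Klf1 was at 3.92 in WT 0GH and between -1.47 and -1.11 in the other groups. Epor was at 2.55 and 4.92 in WT (0GH, then 1GH) and at -0.16 and -0.15 in NLS, Hba-a1 at -1.89 and -1.68 against -2.97 and -3.36, and Gata1 at 2.67 and 2.51 against 1.33 and 2.03. All 4 were thus lower in both NLS groups than in both WT groups. The part of these marker differences in the comparisons of receptor form and of WT 0GH was not tested.

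The members lay above the middle of the array more often than the rest. Of the 51, 35 had a mean level above 0 over the 12 arrays, against 51.4% of the 10762 tested features, and their median level was 0.31 against 0.04 for all features. In the limma test against the reference with Benjamini-Hochberg adjustment, 16 members were higher than the array median (31.4%, against 22.9% of all features) and 7 were lower (13.7%, against 23.2%). This test leaves out the spread of the reference RNA, and the counts depend on the letters used. Without letter c 4 members passed on the higher side and 5 on the lower (12.7% and 13.3% of all features). Without letter d 7 and 4 did (12.2% and 13.4%). Letter b mattered less on the higher side: without it 14 members were higher and 5 lower (19.5% and 21.8%). Without the centring, 21 were higher and 3 lower, against 30.1% and 10.7% of all features.

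**Figure D1:**
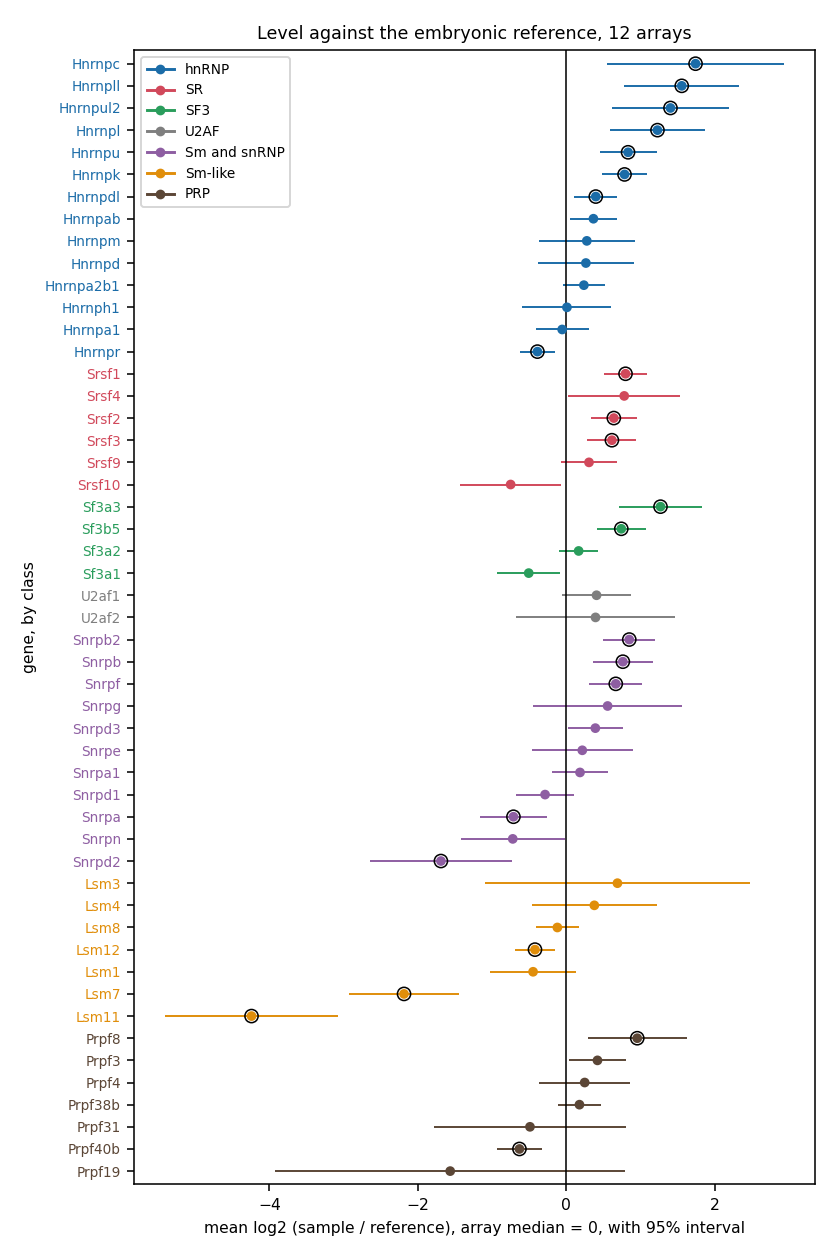
Mean level of the 51 tested members against the embryonic reference (x axis, log2 ratio with the array median at 0), grouped by class and coloured by it, with 95% intervals from the fit over 12 arrays. Black rings mark the 23 members with an adjusted p under 0.05; Lsm11 and Lsm7 stand far to the left and Hnrnpc, Hnrnpll, Hnrnpul2, Sf3a3 and Hnrnpl lie farthest to the right.

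The hnRNP class held 7 of the 16 higher members. Hnrnpll, which regulates alternative exons of the leukocyte antigen gene Ptprc, ranged from 0.78 to 4.57 with a median of 1.09, and its mean was 1.56 (SE 0.35, limma adjusted p = 0.0049). Its 2 highest values, 3.46 and 4.57, both came from letter b. Hnrnpl, its close relative that binds CA repeats, had a mean of 1.23 (SE 0.29, limma adjusted p = 0.006) over a range from -2.22 to 3.24. Hnrnpk, which binds C-rich RNA, and Hnrnpu, a scaffold protein of the nuclear matrix, were tighter. Hnrnpk lay above 0 on every array, from 0.03 to 1.23, with a mean of 0.79 (SE 0.14, limma adjusted p = 0.0013). Hnrnpu ranged from -0.15 to 1.92 with a mean of 0.83 (SE 0.17, limma adjusted p = 0.0033). Hnrnpc had the highest mean of all members, 1.74 (SE 0.53, limma adjusted p = 0.0224), but without letter b it was 0.74. Hnrnpr was the only hnRNP gene that passed on the lower side, at -0.39 (SE 0.11, limma adjusted p = 0.0145), and was also the steadiest member, with a residual SD of 0.17. Without the centring its mean was 0.03.

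All 3 SR genes that passed were higher. Srsf1, the founding SR protein, lay above 0 on all 12 arrays, from 0.08 to 1.33, with a mean of 0.80 (SE 0.13, limma adjusted p = 8.1e-04). Its 3 spots had mean levels of 1.14, 0.73 and 0.54. Srsf2 and Srsf3 had means of 0.64 and 0.62. Srsf10, an SR protein that becomes a repressor when it is dephosphorylated, was the lowest of the class at -0.75, with an adjusted p of 0.0689 in limma. Among the SF3 genes, which build the part of the U2 snRNP that grips the branch point, Sf3a3 at 1.27 (SE 0.25) and Sf3b5 at 0.74 (SE 0.15) passed, while Sf3a2 was at 0.17 and Sf3a1 at -0.50 (limma adjusted p = 0.0514). Sf3b1, the largest SF3b subunit, had values on 10 arrays only, all between 1.87 and 3.35. With at least 2 values per group its mean was 2.58 (SE 0.22, limma adjusted p = 1.1e-04), above every member with values on all arrays.

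Genes of the snRNP core were on both sides. Snrpb2 and Snrpb, a U2 protein and a member of the Sm ring, had mean levels of 0.85 (SE 0.16) and 0.76 (SE 0.18), and Snrpf, another ring protein, 0.67 (SE 0.16). Snrpd2, also in the ring, lay at -1.69 (SE 0.43, limma adjusted p = 0.0093) and reached -4.45 on WT 0GH b and -4.20 on WT 1GH b. Without letter b its mean was -0.77. Snrpa, which binds U1 RNA, was at -0.71 (SE 0.20, limma adjusted p = 0.016). The ring holds 1 copy of each of 7 Sm proteins, and their genes spread here from -1.69 for Snrpd2 to 0.76 for Snrpb. A ratio to the reference depends on the reference too, so this order is not an order of transcript amounts.

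The Sm-like class was the only one with a median level below 0 (-0.42, with 2 of 7 genes above 0). Lsm11 was the lowest of all members. This protein belongs to the U7 snRNP, which trims histone messages and does not splice. Its values ran from -6.87 to -2.10 with a median of -4.17, all 12 below 0, and its mean was -4.24 (SE 0.52), which is 18.9-fold under the array median (limma adjusted p = 2.0e-04). Lsm7, part of the rings that bind U6 and decaying messages, was below 0 on all arrays as well, from -4.12 to -0.69, with a mean of -2.19 (SE 0.33, limma adjusted p = 6.4e-04). Lsm12, an Sm-like protein outside those rings, was at -0.42 (SE 0.12, limma adjusted p = 0.0185). Another Lsm12 spot had values on 11 arrays, from 1.96 to 6.43, so the 2 spots lay on opposite sides of 0 and the level of Lsm12 is uncertain. The same holds for Hnrnpa1, with spot means of 0.39 and -0.50. Of the PRP genes, Prpf8, the scaffold of the catalytic core, was higher at 0.96 (SE 0.30, limma adjusted p = 0.0248), and Prpf40b, a U1-associated protein, was lower at -0.63 (SE 0.14, limma adjusted p = 0.0045).

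The rest of the splicing machinery had a like balance. Of 105 other tested genes of spliceosome, snRNP assembly and splicing regulation, 37 were higher than the array median (35.2%, against 22.9% of all features). Another 10 were lower (9.52%, against 23.2%), and 73 had a mean level above 0 (69.5%, against 51.4%). The highest was Mbnl1, a muscleblind splicing regulator, at 2.92 (SE 0.14), and the lowest was Rbfox2, a regulator of neural and muscle exons, at -3.02 (SE 0.29).

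Members varied less between arrays of a group than most features, with a median residual SD of 0.69 against 1.0. The SR, SF3 and Sm and snRNP classes were the steadiest, with median residual SDs of 0.48, 0.53 and 0.60, and the U2AF, Sm-like and PRP classes the least steady, with 1.27, 1.24 and 1.0. Prpf19, the ubiquitin ligase of the spliceosome, had a residual SD of 4.10 and ran from -7.84 on WT 1GH c to 5.73 on WT 1GH b, so nothing can be read from its group means. Lsm3 (SD 3.09) and Prpf31 (SD 2.21, with -6.36 on NLS 0GH b) were of the same kind.

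**Figure D2:**
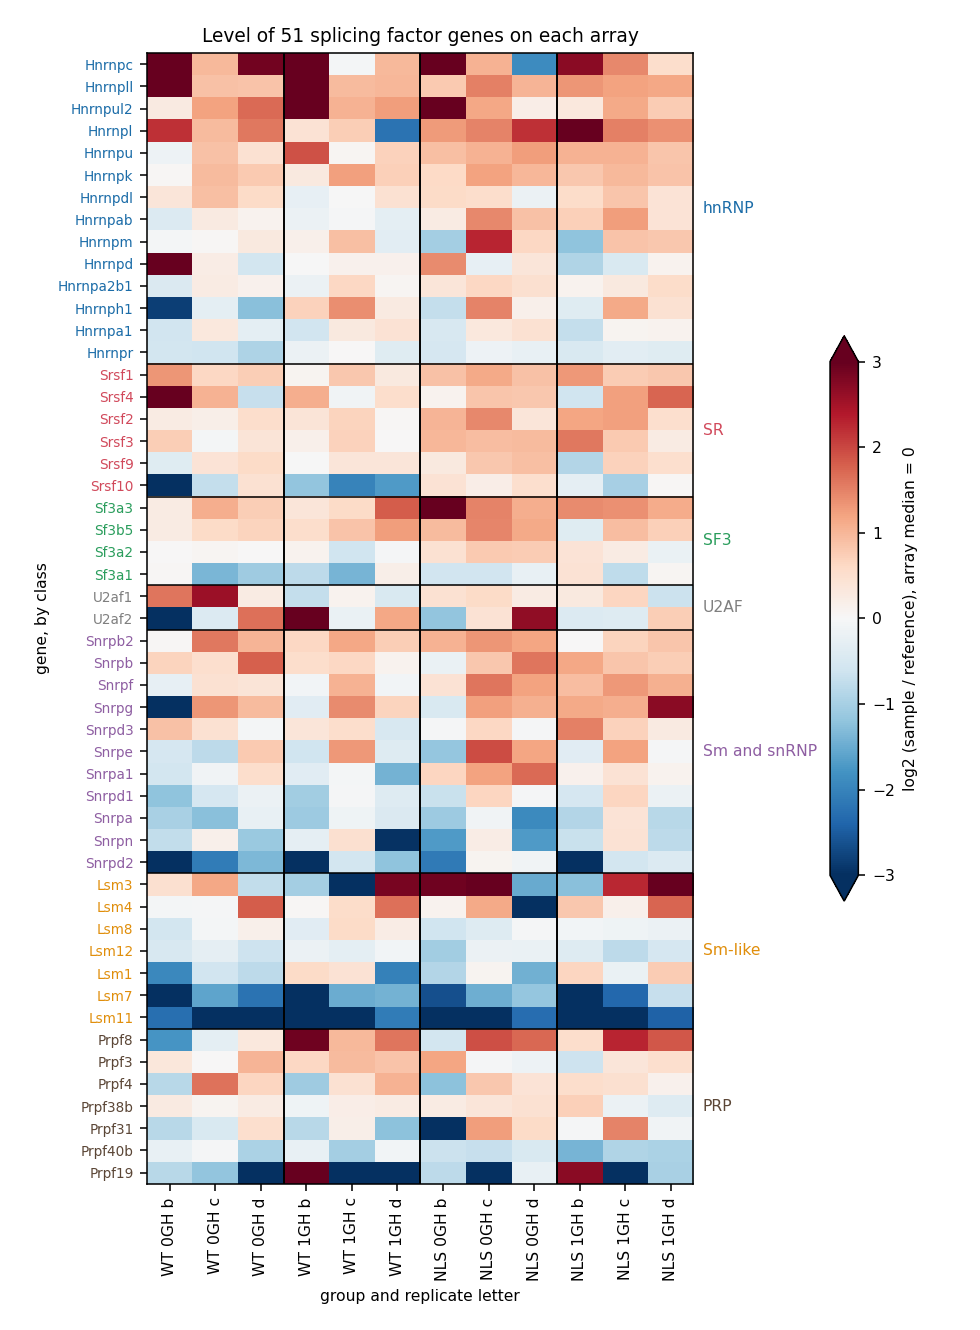
Level of the 51 tested members (rows, by class and then by mean level) on each of the 12 arrays (columns, by group and letter). Colour gives the log2 ratio of sample to reference with the array median at 0, and values beyond 3 in either direction have the end colour; Lsm11 and Lsm7 are blue on all arrays, Snrpd2 is darkest in letter b, and Prpf19 and Lsm3 change colour between arrays of one group.

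The upstream sequences of the members were read from RefSeq (GRCm38.p6) to see what they share beyond their names. A window of the 250 bases before the start was found for 55 of the 66 genes. The letters CCGGAAG, the core that ETS factors bind, occurred on either strand in 15 of the 55 (27.3%), against 7.83% of 27025 genes with a window. The GC box GGGCGG was in 37 (67.3%, against 35.4%), CCAAT in 25 (45.5%, against 37.5%) and TATAAA in 6 (10.9%, against 14.3%). TTCNNNGAA, the letters that STAT factors bind, was in 3 (5.45%, against 8.13%). The members' windows were richer in G and C (median 60% against 52.4%), and both GGGCGG and CCGGAAG are GC-rich. The ETS letters were unevenly spread: 5 of 6 SF3 genes with a window held them, 3 of 9 SR genes, 3 of 9 PRP genes, 3 of 10 Sm and snRNP genes, 1 of 14 hnRNP genes, 0 of 6 Sm-like genes and 0 of 1 U2AF gene. A match is a description and shows no binding.

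The 100 bases before the start are given for the 3 SF3a subunits, which form 1 complex and all hold the ETS letters, in capitals here. In Sf3a1 they end at the base before the start, in Sf3a2 they begin 76 bases before it and in Sf3a3 90 bases before it, there on the other strand.
Sf3a1, chr11:4160254-4160353, plus strand: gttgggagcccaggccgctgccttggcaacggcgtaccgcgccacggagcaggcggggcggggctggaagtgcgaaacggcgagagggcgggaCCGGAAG
Sf3a2, chr10:80798635-80798734, plus strand: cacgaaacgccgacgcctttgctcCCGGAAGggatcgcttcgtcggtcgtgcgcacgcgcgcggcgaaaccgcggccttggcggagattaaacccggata
Sf3a3, chr4:124714761-124714860, plus strand: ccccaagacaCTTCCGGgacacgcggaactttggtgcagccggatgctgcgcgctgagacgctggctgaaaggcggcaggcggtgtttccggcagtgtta

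The same stretch is given for the 4 members with an unadjusted p under 0.05 in limma between the receptor forms, averaged over 0GH and 1GH (5.27% of all features). None of the 4 passed adjustment. None of their 250-base windows holds the ETS letters.
Hnrnpab, chr11:51606882-51606981, minus strand: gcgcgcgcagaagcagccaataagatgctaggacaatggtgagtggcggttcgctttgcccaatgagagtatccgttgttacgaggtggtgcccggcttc
Snrpa1, chr7:66060236-66060335, plus strand: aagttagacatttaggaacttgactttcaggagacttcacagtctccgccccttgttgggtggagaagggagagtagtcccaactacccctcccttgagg
Snrpf, chr10:93589659-93589758, minus strand: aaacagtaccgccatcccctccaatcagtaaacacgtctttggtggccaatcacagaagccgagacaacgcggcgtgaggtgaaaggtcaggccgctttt
Srsf10, chr4:135855971-135856070, plus strand: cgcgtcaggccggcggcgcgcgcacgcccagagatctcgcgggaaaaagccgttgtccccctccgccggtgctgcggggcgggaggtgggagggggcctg

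The first comparison asks what differs between the NLS and the WT form of the receptor. No member and no other feature passed the adjusted threshold, neither at 0GH nor at 1GH nor averaged over both (0 of 51 and 0% of 10762 in each, limma with Benjamini-Hochberg adjustment, with or without the letter as a block). At an unadjusted p under 0.05, 4 members differed in the average, all higher in NLS (5.27% of all features, 2.81% on the higher side and 2.46% on the lower). With the letter as a block 7 members did (7.94% of all features). The members' differences leaned upward: 35 of 51 were above 0 in the average, against 47.7% of all features, with a median of 0.22 against -0.03. At 0GH 34 were above 0 (49.7% of all features) with a median of 0.39, and at 1GH 33 (46.8%) with a median of 0.23. In the average, leaving out single arrays or letters gave between 32 and 39 members above 0. The 4 members with an unadjusted p under 0.05 became 0 without letter c (3.85% of all features). They became 2 without NLS 0GH c (5.70%) and 7 without NLS 1GH d (4.87%). The erythroid markers that were lower in NLS move with this comparison. The median was 0.20 in letter b, 0.46 in letter c and 0.35 in letter d. Without the centring, the median difference of all features moved to -0.18 at 0GH and 0.35 at 1GH, and that of the members to 0.21 and 0.63, so the members stayed above the rest. The WT 0GH and WT 1GH arrays enter both this and the next comparison, so the 2 are not independent.

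Hnrnpab, an hnRNP that binds AU-rich RNA, had the smallest p. Its levels were -0.41, 0.26 and 0.11 in WT 0GH (letters b, c and d), -0.17, -0.03 and -0.30 in WT 1GH, 0.26, 1.43 and 0.88 in NLS 0GH, and 0.72, 1.26 and 0.41 in NLS 1GH. The lowest NLS array and the highest WT array met at 0.26, and NLS was above WT in all 6 pairs matched by letter and GH number. The averaged difference was 0.92 (SE 0.29, limma adjusted p = 0.844). Another Hnrnpab spot had values on 7 arrays only, from -6.22 to 0.30, with -1.83, -0.87 and -0.87 in WT and -2.91, -4.28, -6.22 and 0.30 in NLS, so it did not show the same order.

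Snrpa1, the A′ protein of the U2 snRNP, was at -0.56, -0.10 and 0.53 in WT 0GH, -0.34, -0.07 and -1.41 in WT 1GH, 0.64, 1.21 and 1.69 in NLS 0GH and 0.13, 0.42 and 0.10 in NLS 1GH. All 3 NLS 0GH arrays lay above all 6 WT arrays, while the NLS 1GH arrays overlapped with WT 0GH d. The averaged difference was 1.02 (SE 0.34, limma adjusted p = 0.844), and it stayed between 0.82 and 1.16 when single arrays or letters were left out.

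Snrpf, of the Sm ring, was at -0.24, 0.45 and 0.40 in WT 0GH, -0.07, 1.04 and -0.08 in WT 1GH, 0.43, 1.60 and 1.22 in NLS 0GH and 0.92, 1.30 and 1.07 in NLS 1GH. Apart from WT 1GH c and NLS 0GH b, every NLS array lay above every WT array. The averaged difference was 0.84 (SE 0.32, limma adjusted p = 0.876), with a range of 0.71 to 1.03 when single arrays or letters were left out.

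Srsf10 had the largest difference of the 4, 1.46 (SE 0.61, limma adjusted p = 0.899). Its levels were -3.70, -0.71 and 0.45 in WT 0GH, -1.18, -2.01 and -1.71 in WT 1GH, 0.43, 0.20 and 0.51 in NLS 0GH and -0.28, -1.0 and 0.03 in NLS 1GH. Without WT 0GH b, the lowest array, the difference was 0.86. WT 0GH d, at 0.45, lay among the NLS 0GH arrays.

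**Figure D3:**
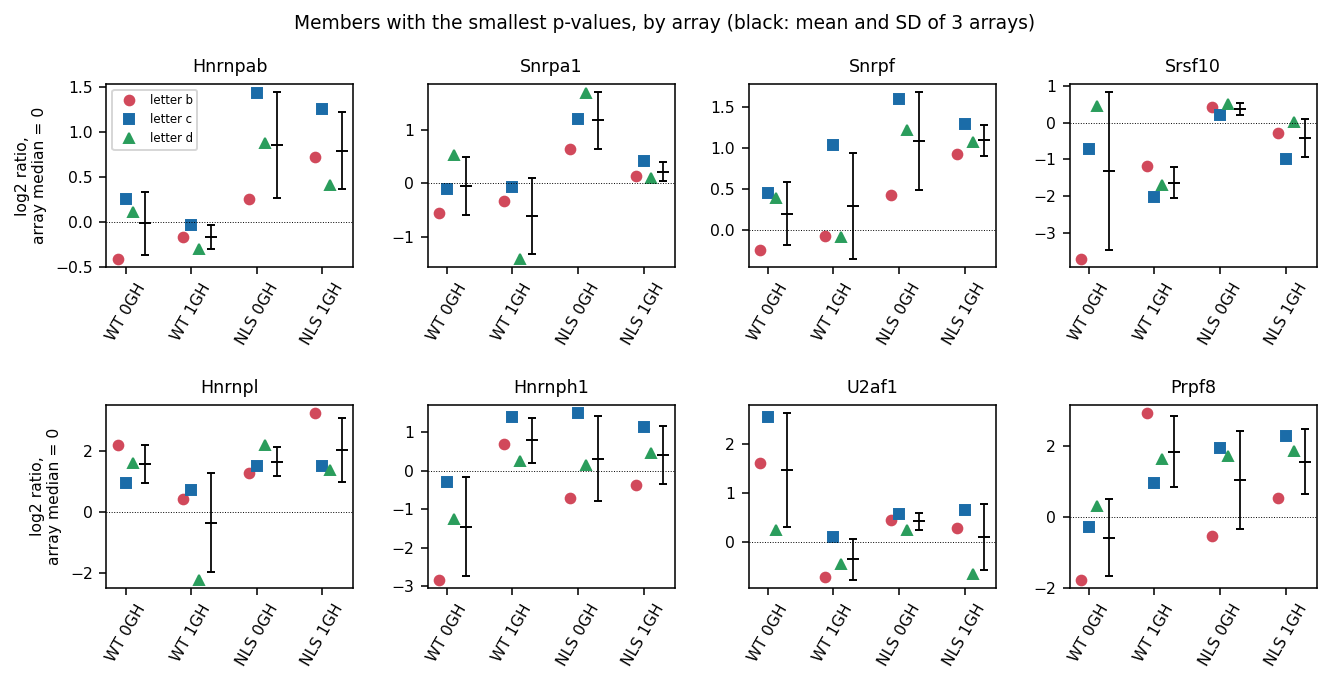
Levels of 8 members by array (y axis, log2 ratio with the array median at 0; each panel has its own scale), with the letter as marker and colour and, in black, the mean and SD of the 3 arrays of a group. In the upper row (Hnrnpab, Snrpa1, Snrpf, Srsf10) NLS lies above WT in each letter at both GH numbers. In the lower row Hnrnpl is low on WT 1GH d alone. There Hnrnph1 and Prpf8 have a higher mean in WT 1GH than in WT 0GH, and U2af1 a lower one.

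In all, 7 of 51 members were above WT in all 6 pairs of letter and GH number (13.7%, against 3.49% of all features), namely Hnrnpab, Srsf3, Srsf10, Snrpa1, Snrpd1, Snrpd2 and Snrpf. None was below WT in all 6 (2.48% of all features). No member had all 6 NLS arrays above all 6 WT arrays (0.567% of all features).

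By class, all 4 SF3 genes had an averaged difference above 0, with a median of 0.46, led by Sf3a3 at 0.93 and Sf3a2 at 0.48. Without letter b the value of Sf3a3 was 0.21. Of the 6 SR genes 5 were above 0, with a median of 0.45, from -0.19 for Srsf4 to 1.46 for Srsf10. Srsf2 and Srsf3 differed by 0.62 (SE 0.28) and 0.59 (SE 0.30), and Srsf1 by 0.31 (SE 0.26). The 2 Srsf2 spots both gave 0.62. Of the 11 Sm and snRNP genes 9 were above 0, with a median of 0.50, from -0.05 for Snrpa to 1.25 for Snrpd2. The hnRNP genes had a median of 0.17 with 10 of 14 above 0, and ranged from -1.02 for Hnrnpc (-0.22 without letter d) to 1.23 for Hnrnpl (0.77 without WT 1GH d). The Sm-like genes had a median of 0.36 with 4 of 7 above 0. The PRP genes had a median of -0.09 with 3 of 7 above 0, which was 0.02 without the centring and 0.06 with quantile normalization, and both U2AF genes were below 0. On the lower side the smallest p-values belonged to Prpf40b at -0.42, Prpf3, of the U4/U6 snRNP, at -0.43, and Hnrnpll at -0.78. None of these reached an unadjusted p of 0.05.

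**Figure D4:**
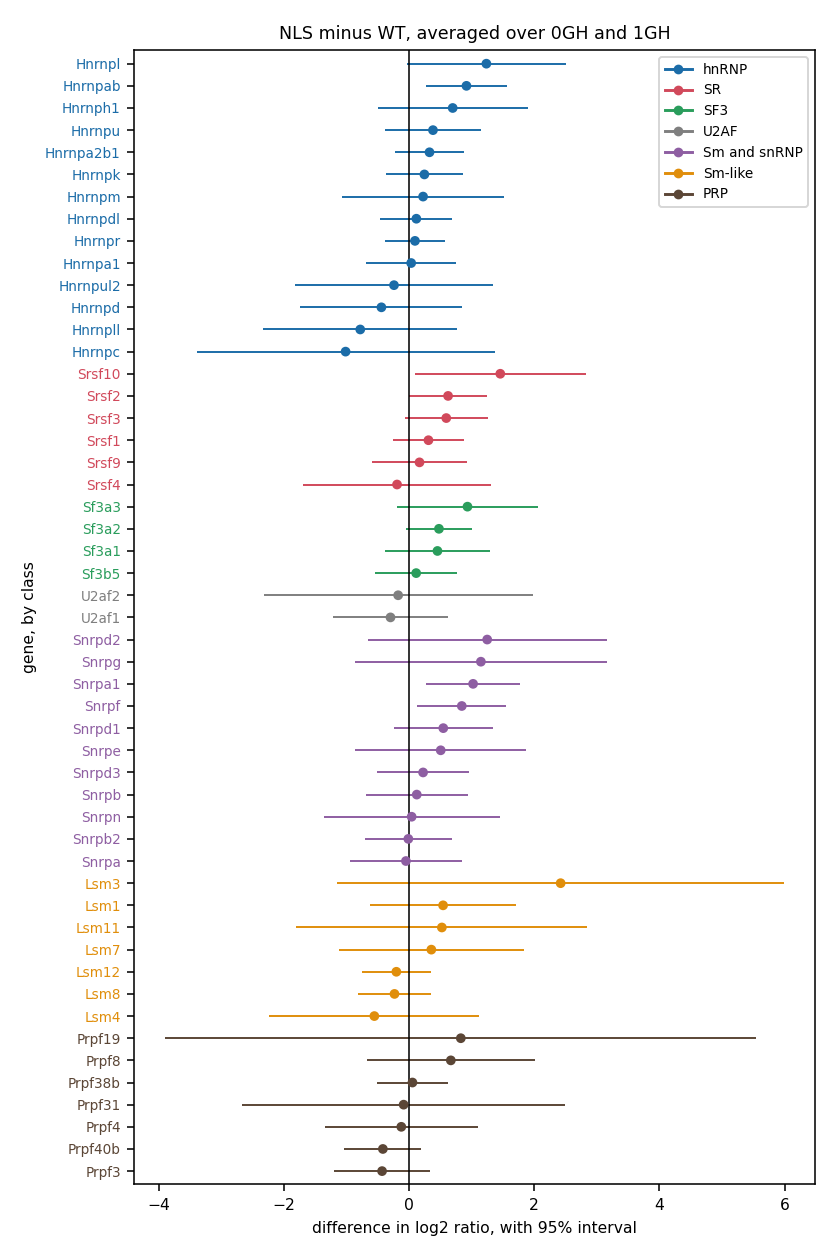
Difference between NLS and WT averaged over 0GH and 1GH (x axis, log2 units, with 95% intervals of the limma fit) for the 51 tested members by class. Intervals of 4 members lie wholly above 0 (Hnrnpab, Srsf10, Snrpa1 and Snrpf), none lies wholly below 0, and all 4 SF3 points lie to the right of 0.

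Of the members with fewer values, 12 could be fitted with at least 2 values per group. In the averaged difference 2 of these 12 had an unadjusted p under 0.05, against 5.76% of the 15115 features under that filter. Srsf6, an SR protein, differed by 1.47 (SE 0.48, limma adjusted p = 0.849). It lay between -1.0 and 1.77 on the 6 WT arrays and between 1.45 and 2.94 on the 5 NLS arrays with a value. Lsm2, of the U6 ring, differed by 1.76 (SE 0.65, limma adjusted p = 0.85), and lay at -2.89 to 0.66 in WT and 0.23 to 2.09 in NLS. Prpf18 at 1.99 (SE 2.06), Sf3b6 at 1.78 (SE 1.37) and Srsf5 at 1.70 (SE 1.18) differed by more than Srsf6, but with wider errors. Hnrnph2 had a smaller difference, 1.01 (SE 1.02).

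Among the 105 other splicing genes 63 had an averaged difference above 0, with a median of 0.04. At an unadjusted p under 0.05, 5 were higher in NLS and 2 were lower (4.76% and 1.90%, against 2.81% and 2.46% of all features). The higher ones included Usp39, a tri-snRNP protein, at 1.21 (SE 0.29, limma adjusted p = 0.794), Eftud2, the U5 GTPase, at 1.15 (SE 0.41), and Wdr77, a partner of the arginine methyltransferase that prepares Sm proteins for assembly, at 1.28 (SE 0.33). The lower ones were Dnajc17 at -0.92 and Ppil2 at -0.76.

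At 0GH alone, Snrpa1 differed by 1.22 (SE 0.47, limma adjusted p = 0.951) and Hnrnph1, which binds runs of G, by 1.77 (SE 0.76, limma adjusted p = 0.951). These were 2 of 51 with an unadjusted p under 0.05, against 4.61% of all features (2.16% higher and 2.45% lower), and with the letter as a block there were 6 (6.97%). The count was 0 without letter c (4.14% of all features) or without WT 0GH b (3.50%), and 7 without NLS 0GH b (6.39%). Without WT 0GH b, where Hnrnph1 was lowest, its difference was 1.09. At 1GH alone, Hnrnpl differed by 2.39 (SE 0.81, limma adjusted p = 0.999) and Hnrnpab by 0.96 (SE 0.41, limma adjusted p = 0.999), both higher, 2 of 51 against 3.49% of all features, 2.03% on the higher side (3 and 5.25% with the letter as a block). This count was 0 without letter b (5.46% of all features), without letter d (2.37%) or without NLS 1GH b (4.04%). The value of Hnrnpl rested in part on WT 1GH d at -2.22 and was 1.46 without it. The members lowest in NLS by p were U2af1 at -1.05, Hnrnpc at -2.01 and Lsm4 at -1.27 at 0GH, and Prpf40b at -0.63, Prpf3 at -0.73 and Hnrnpul2 at -1.25 at 1GH. Hnrnpc was at -0.61 without NLS 0GH d, U2af1 at -0.50 without WT 0GH c and Hnrnpul2 at -0.19 without letter b. Lsm4 at 0GH had 1 low array, NLS 0GH d at -3.34, and was at 0.05 without it.

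The second comparison sets 1GH against 0GH within a form of the receptor. In WT, no feature passed the adjusted threshold (0% of 10762), and 4 members had an unadjusted p under 0.05 (2.69% of all features), or also 4 with the letter as a block (3.73%). The split was even, with 2 higher (1.15% of all features) and 2 lower (1.53%) at 1GH. Of all members 29 of 51 were above 0, against 52.5% of all features, with a median of 0.09 against 0.03. That median ran from -0.07 without WT 1GH c to 0.19 without WT 0GH d, and was -0.01 without WT 0GH b. The 4 members became 2 without letter b (3.41% of all features), without letter d (3.16%) or without WT 0GH b (2.26%).

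U2af1, which reads the AG at the 3′ splice site, was at 1.61, 2.56 and 0.24 in WT 0GH (letters b, c and d) and at -0.71, 0.10 and -0.45 in WT 1GH. At 1GH it was lower by 1.83 on the log2 scale (a difference of -1.83, SE 0.59, limma adjusted p = 1.0). In the NLS form it was at 0.45, 0.58 and 0.24 in 0GH and 0.30, 0.65 and -0.65 in 1GH. Its partner U2af2, which binds the pyrimidine tract, ran from -2.99 to 3.70 over the 12 arrays, with a difference of 2.14 (SE 1.37) in WT.

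Hnrnph1 was at -2.83, -0.29 and -1.26 in WT 0GH and 0.69, 1.40 and 0.26 in WT 1GH, a difference of 2.24 (SE 0.76, limma adjusted p = 1.0). In NLS it was at -0.71, 1.49 and 0.15 in 0GH and -0.36, 1.13 and 0.45 in 1GH. In WT its limma adjusted p was 0.997 once the letter was a block. Prpf8 was at -1.77, -0.29 and 0.31 in WT 0GH and 2.92, 0.96 and 1.62 in WT 1GH. This was a difference of 2.42 (SE 0.85, limma adjusted p = 1.0), which was 1.28 without letter b. Hnrnpl was at 2.19, 0.95 and 1.59 in WT 0GH and 0.43, 0.73 and -2.22 in WT 1GH, a difference of -1.93 (SE 0.81, limma adjusted p = 1.0) that was -0.99 without letter d. An unbroken direction in all 3 letters was seen in 7 members upward (13.9% of all features) and 4 downward (9.91%), which is near the share of all features. Of Prpf6, with 11 values, the fit with at least 2 values per group gave 4.0 (SE 1.30, limma adjusted p = 1.0).

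In NLS, 0 of 51 members had an unadjusted p under 0.05 (2.92% of all features, of which 1.71% on the higher side), or 1 with the letter as a block (4.37%), and none passed adjustment in limma. Of the members 24 of 51 were above 0, against 47.3%. An unbroken direction in all 3 letters was seen in 4 members upward (7.84%, against 12.7% of all features). Downward it was seen in 10 members (19.6%, against 12.8%). The smallest p-values were those of Snrpa1 at -0.96 (SE 0.47, limma adjusted p = 1.0) and Sf3b5 at -0.76 (SE 0.41, limma adjusted p = 1.0) on the lower side, followed by Sf3a2 at -0.52, and Lsm1 at 1.15, Lsm4 at 1.60 and Snrpd3 at 0.64 on the higher side. Single arrays or letters moved most of these: Lsm4 was at -0.15 without letter d, Snrpd3 at 0.19 without letter b, Lsm1 at 0.62 without letter d, Sf3b5 at -0.37 without NLS 1GH b and Sf3a2 at -0.30 without letter d. Averaged over both forms, 3 members had an unadjusted p under 0.05 (2.85% of all features, 1.36% higher and 1.50% lower), and also 3 with the letter as a block (4.27%). They were U2af1 at -1.07 (SE 0.42), Prpf8 at 1.47 (SE 0.60) and Snrpa1 at -0.76 (SE 0.34). The count was 0 without WT 1GH b (2.74% of all features) or without NLS 1GH d (2.88%). Prpf8 was at 0.76 without letter b and Snrpa1 at -0.26 without letter d. The median of the members was -0.02, with 25 of 51 above 0 (49.3% of all features).

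Whether the GH difference itself depended on the form of the receptor was tested with the interaction term. 0 of 51 members had an unadjusted p under 0.05 (2.42% of all features), or 4 with the letter as a block (3.71%), and 0 passed adjustment in limma (0% of all features). Hnrnpl at 2.31 (SE 1.14, limma adjusted p = 1.0), Hnrnph1 at -2.15 (SE 1.08, limma adjusted p = 1.0), Sf3b5 at -1.14 (SE 0.59) and U2af1 at 1.5 (SE 0.83) had the smallest p-values. The GH differences of U2af1, Hnrnph1 and Hnrnpl in WT are thus not shown to differ from those in NLS. Of all members 18 of 51 had an interaction above 0, against 47.3% of all features, with a median of -0.16 against -0.06.

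**Figure D5:**
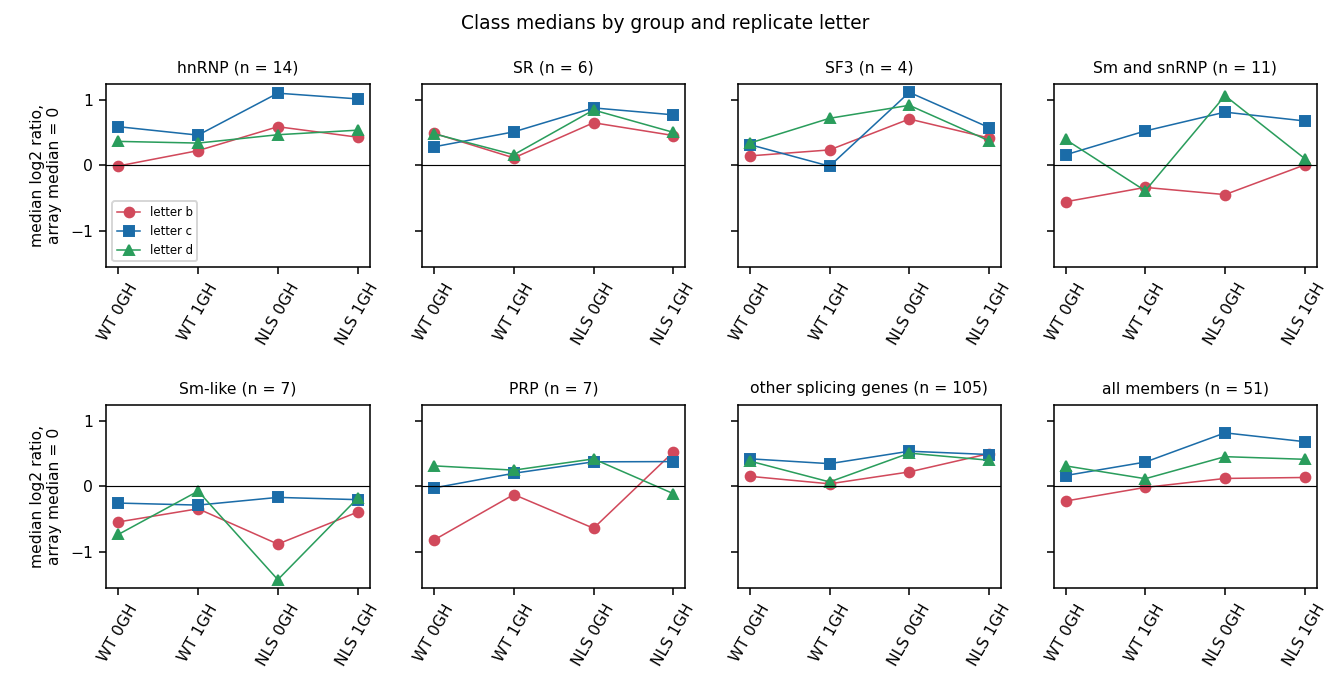
Median level of each class with at least 4 tested genes, of 105 other splicing genes and of all 51 members (y axis, log2 ratio with the array median at 0) in the 4 groups (x axis), with 1 line per replicate letter. The hnRNP, SR and Sm and snRNP medians are higher in NLS than in WT at every letter and GH number. So are those of the other splicing genes and of all members. The SF3 and PRP medians are higher with 1 exception each, letter d at 1GH, and the Sm-like medians go both ways. These are medians of levels, and the median difference of the hnRNP genes at 1GH was -0.06. The Sm and snRNP medians of letter b run from -0.56 to 0.01 and are the lowest of the letters except in WT 1GH.

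The third comparison is between the letters. No member and no other feature passed the adjusted threshold of limma's moderated F test (0% of all features), and 10 of 51 members had an unadjusted p under 0.05 (17.5% of all features). Without the centring, 4 members passed the adjusted threshold between letters, a smaller share than the 15.2% of all features. Letter b was the lowest of the 3 in 27 members, against 30.2% of all features, and in 9 of the 11 Sm and snRNP genes. The median of the Sm and snRNP gene means was -0.65 in letter b, 0.57 in letter c and 0.23 in letter d. Letter b also had the most missing values, at 9.93% of the values of member spots against 2.40% in c and in d, and at 26.5% of all spots against 17.3% and 16.2%. The part of this in the letter differences was not tested.

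Snrpd2 differed most between letters. Its levels were -4.45, -4.20, -2.12 and -3.29 in letter b (in the order WT 0GH, WT 1GH, NLS 0GH, NLS 1GH), -2.10, -0.56, 0.08 and -0.55 in letter c and -1.35, -1.20, -0.10 and -0.41 in letter d. All 4 values of letter b lay below those of c and d, NLS 0GH b by only a little (limma F test, adjusted p = 0.068). Within each letter NLS was higher than WT at the same GH number, though hardly so in letter c at 1GH. Lsm7 was next (adjusted p = 0.122 in the limma F test), also lowest in letter b. Hnrnph1 was lowest in b and highest in c (limma adjusted p = 0.147). Hnrnpc went the other way, at 4.90, 3.84, 3.59 and 2.71 in letter b and between -1.89 and 2.89 in c and d (limma adjusted p = 0.158).

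Other well-known members, named for their place in the pathway, are given by their group means. Hnrnpa1 had means of -0.19 and 0.05 in WT (0GH, then 1GH) and 0.10 and -0.18 in NLS, the order used for the rest, with SDs between 0.46 and 0.54, and Hnrnpa2b1, its partner in hnRNP particles, -0.02, 0.18, 0.49 and 0.32. Hnrnpk was at 0.59, 0.74, 0.94 and 0.88. No 2 groups of Hnrnpa1 or Hnrnpk were farther apart than the largest SD within a group. Snrpb was at 0.99, 0.42, 0.74 and 0.91 and Snrpd1 at -0.62, -0.49, -0.01 and -0.01, the latter with SDs from 0.51 to 0.66. Snrpn, an imprinted relative of Snrpb, was at -0.56, -0.92, -1.06 and -0.34, and its other spot, with 9 values, ran from -7.03 to 1.79. Sf3a1 was at -0.80, -0.67, -0.46 and -0.09, with SDs from 0.21 to 0.79. Prpf31, which holds the tri-snRNP together, was at -0.26, -0.63, -1.51 and 0.45, with an SD of 4.22 in NLS 0GH.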

How the data were processed

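Spotted 2-colour arrays, 12 in all, each compared RNA of 1 mouse sample with the reference. The authors deposited log2 ratios of the 2 channels (the base is inferred from the values, from -14.6 to 18.2). Per the series' design text, a Lowess curve over 50% of the data was fitted and the control channel was floored at 200. No source used here gives the scanner, background correction or image software. The deposited medians of the arrays ran from -1.24 to 0.893. All values were multiplied by -1, since 37 of 42 embryo-tissue genes lay above the array median as deposited, which puts the reference on top of that ratio.

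Of 23040 spots, 902 controls were left out. Spots with a value on all 12 arrays (11245) were averaged by gene, which gave 10762 features. Each array was centred on its median feature. Means of the 4 groups were fitted over the 12 arrays with lmFit and eBayes of limma 3.58.1 (R 4.3.3). Tests were two-sided, p-values were adjusted by Benjamini-Hochberg over all features of a comparison, and the threshold was 0.05. The code was tested on simulated data. Letters were tested by a moderated F test beside the group.

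Deviations from group means correlated at 0.04 to 0.26 within a letter (15 of 18 pairs over 0.1) and at -0.19 to 0.07 between letters. Arrays of a letter have the same recorded dye incorporation of the reference in the labels, which do not say that they share a labelling. The letter was also fitted as a block. Other alternatives left out the centring, normalized by quantiles, lowered the filter to 2 values per group, dropped ratios over 8 log2 units from the array median, or used single spots or a robust trended prior. Arrays and letters were left out in turn.

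Genes were named by the platform annotation. The members, the list of 122 other splicing genes (105 tested) and the tests were chosen with earlier results of these data known. Named in each comparison were members past the threshold (up to 12 in each direction), otherwise the 3 smallest p-values in each direction, with 20 members set for their standing in the pathway and the extremes of each class. Examples outside this rule, such as Srsf10, Srsf6, Lsm2, Snrpd2 between letters and genes of the other list, were chosen after their values were seen.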

Additional observations from a re-analysis of the deposited data

How the results depend on the processing

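No member passed the adjusted threshold between groups in any alternative that was run, so the counts below are of other rules. At an unadjusted p under 0.05, 2 members were counted for NLS against WT at 0GH (4.61% of all features). There were 2 at 1GH (3.49%) and 4 in the averaged receptor difference (5.27%). For 1GH against 0GH there were 4 in WT (2.69%) and 3 in the averaged GH difference (2.85%). Between letters there were 10 (17.5%). With the letter as a replicate block, 0 members passed adjustment in the group comparisons, with the block fixed or random (consensus correlation 0.15). Against the reference 18 members were higher and 9 lower with the fixed block (25.2% and 24.6% of all features), and 14 and 6 with the random one (17.8% and 18.97%). At an unadjusted p under 0.05 the fixed block moved the count for NLS against WT at 0GH to 6 (6.97% of all features). The count at 1GH became 3 (5.25%) and that of the average 7 (7.94%). For GH in NLS it became 1 (4.37%) and for the interaction 4 (3.71%). GH in WT stayed at 4 (3.73%) and the averaged GH difference at 3 (4.27%). The share of all features rose with the block in each of these comparisons.

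Without the centring, the median difference of the members was 0.2114 for NLS against WT at 0GH, 0.6257 at 1GH, -0.1748 for GH in WT, 0.2588 for GH in NLS, 0.4193 for the interaction and 0.7277 against the reference. The medians of all features moved with them, to -0.18, 0.35, -0.23, 0.27, 0.52 and 0.46. Members lower than the reference numbered 3 (10.7% of all features), and 4 members passed between letters (15.2% of all features). At 1GH the median of NLS against WT was 0.3320 with quantile normalization, 0.4258 with at least 2 values per group and 0.4309 with values over 8 log2 units left out. The averaged receptor difference of Snrpa turned to 0.0577 without the centring and 0.1112 with quantiles, and that of Prpf31 to 0.0210 and 0.2206. Levels that turned without the centring were Hnrnpr (0.0326), Hnrnpa1 (0.3661) and Snrpd1 (0.1356). Hnrnpa1 also turned with at least 2 values per group (0.0443) and with extreme values left out (0.0268). The cause was not tested.

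Leaving out single arrays or letters, the members' median ran from 0.2306 to 0.5266 for NLS against WT at 0GH, from 0.1498 to 0.3234 at 1GH and from 0.1101 (without letter c) to 0.3550 in the average. For GH in WT it ran from -0.0704 (without WT 1GH c) to 0.1867 (without WT 0GH d). For GH in NLS it ran from -0.2416 to 0.1855 and for the interaction from -0.3754 (without NLS 0GH b) to 0.0241 (without letter c). Between 4 and 18 members were higher (12.2% to 21.7% of all features) and between 4 and 8 lower (13.3% to 22.6%) than the reference. The sign of the averaged receptor difference held throughout in 30 of 51 members and that of the level in 42. It turned within -1.3999 to 0.3106 for Hnrnpll, -0.1210 to 0.1771 for Hnrnpa1, -0.7769 to 0.3821 for U2af2, -0.5018 to 0.4463 for Snrpa, -0.0932 to 0.3560 for Snrpb, -0.4723 to 0.4016 for Snrpn, -1.0738 to 0.4305 for Lsm4, -0.5928 to 2.8014 for Prpf19 and -0.8850 to 1.1253 for Prpf31. Lsm4 also turned for NLS against WT at 0GH (-2.4878 to 0.6754) and for GH in NLS (-0.1499 to 2.8887). Levels turned for Hnrnpa1 (-0.2060 to 0.2129), Hnrnph1 (-0.4517 to 0.4178), U2af2 (-0.1817 to 0.7042) and Prpf31 (-1.0406 to 0.2780). The cause was not tested.

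With 3 arrays per group the number of arrays limits the precision, and a missing result does not show that groups are alike. Signal over background cannot be read from the ratios used here. The direction and base of the ratio were inferred from the values. The level test leaves out the spread of the reference RNA. Receptor and GH comparisons share arrays. The 15 members without a value on all arrays were tested only with at least 2 values per group, where 12 of them had enough.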
